A study of Mus musculus with 6 samples.

Results

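The genes described here transduce the hedgehog signal or build and supply the primary cilium in which it is transduced. They were chosen by function as a list of 45 gene symbols, with earlier results of these data known. Every array spot annotated with 1 of these symbols was taken. The list was sorted into 5 roles, namely the receptor side with ligand processing, the Gli factors with their regulators, the intraflagellar transport particle, its motors, and the basal body with the BBSome and the ciliary membrane. Of the 45 genes, 44 were found by 49 of the 34967 transcript spots on each array, among 18507 named genes. The missing gene, Gsk3b, is annotated only on a spot that carries several symbols, so its signal is not analysed here. Its promoter is among those searched below.

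RNA was measured on 6 one-colour CodeLink Mouse Whole Genome arrays. Samples 6, 9 and 11 came from Fkbp8 null embryos and samples 7, 10 and 12 from wild-type controls, all on a mixed C57BL/6 and 129S5/SvEvBrd background at embryonic day 9.5. At this age the embryos averaged 21.6 somite pairs per the labels, which give no stage for single samples, and the posterior neuropore was the last open stretch of the neural tube. The tissue was everything caudal to the forelimb pit, so each extract mixed neural tube, somites, tail bud, surface ectoderm, gut and blood, and fewer cells of a type and less RNA per cell cannot be told apart. One label field places the tissue in the anterior neural tube and the others in the posterior, and the labels do not say whether a sample is a single embryo, so that p-values measure the spread between these samples only. The labels call the allele null and describe no construct.

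Hedgehog ligands bind Patched receptors, which releases Smoothened to enter the primary cilium, and Gli factors that pass through the ciliary tip are then spared from proteolytic processing into repressors. Kinesin-2 and cytoplasmic dynein-2 carry intraflagellar transport particles along the cilium. Several mouse mutants of the anterograde complex of these particles lose ventral cell types of the neural tube because Gli activators are not formed. Fkbp8 is an immunophilin anchored in intracellular membranes, and its loss in the mouse is known to expand ventral identities in the caudal neural tube. The comparison of null with wild-type embryos asks whether transcripts of the transduction and transport machinery differ between the genotypes.

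The regulatory sequences that the genes share, independent of the array values, are shown first. RFX factors, which drive transcription of ciliary genes, bind an X-box, an imperfect inverted repeat, searched here as GTNNCC, any 2 bases, then GGNAAC, on either strand. RefSeq promoters of GRCm38.p6, running from 250 bases before to 50 bases after a gene start, were available for 38 of the 45 genes. Of these, 5 held the X-box, or 13.2%, beside 1.49% of 27025 genes with a promoter. Each window is printed 5′ to 3′ on the strand of the gene, with the 14 bases of the match in capitals.
Bbs1, chr19:4906605-4906634, minus strand: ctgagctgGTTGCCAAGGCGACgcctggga
Bbs4, chr9:59353464-59353493, minus strand: ctcagctgGTCGCCCGGGAAACggtcggct
Bbs7, chr3:36613489-36613518, minus strand: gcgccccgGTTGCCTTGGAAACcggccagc
Ift57, chr16:49699199-49699228, plus strand: cgggtctgGTTGCCGTGGTGACcggctgcc
Prkacb, chr3:146770293-146770322, minus strand: ggtctaatGTTGCCGTGGTAACagctcatg

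The match began 121 bases before the gene start in Bbs7, 87 bases before it in Ift57 and 76 bases before it in Prkacb. In Bbs1 and Bbs4 it lay 1 and 23 bases past the start. Basal body and BBSome genes held 3 of the 5 matches among their 7 promoters, and the receptor side and the motors held none among 7 and 4. The single arm GTTGCC, which overlaps the X-box in Bbs1, Bbs7, Ift57 and Prkacb, stood in 14 of the 38 genes (36.8%, beside 14.1% of all genes), among them Ift88, Ift140, Ift172, Kif3a and Dync2h1. The Gli binding site GACCACCCA stood in 0 of the 38 and in 0.289% of all genes. The GC box GGGCGG stood in 68.4% of the 38 and 38.2% of all genes, and CCAAT in 57.9% and 41.1%. These matches describe letters in the windows and were not tested as binding sites.

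Most of the list was measured above background. Between 62.8% and 68.4% of transcript spots per array passed the scanner's near-background flag. Array pairs correlated between 0.975 and 0.988 over the 21247 tested probes after normalization. The number of arrays limits the precision. Of the 44 genes, 40 were tested, and 38 of these had no near-background spot on any array. The exceptions were Gli3 in wild-type sample 7 and Bbs2 in wild-type sample 12. Disp1, Sufu, Prkaca and Prkacb were near background on at least 1 array of each group and were not tested. The targeted gene, measured first as a check of the labels, had raw Fkbp8 intensities of 24.7, 28.9 and 35.7 in null samples 6, 9 and 11, all near background, against 123, 183 and 486 in wild-type samples 7, 10 and 12. That is at least 3.33-fold lower in the null embryos, measured against the lowest signal above background, with an adjusted p of 0.392 in limma. Where this probe lies relative to the disruption is not known here.

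Across the 40 tested genes, no transcript passed the test for a difference between null and wild-type embryos. Values below are log2 signals after quantile normalization, and differences are null minus wild type. An error after ± is the standard error of the limma fit, on 3 and 3 samples or fewer where spots were left out. None of the 40 passed the adjusted threshold of 0.05, each with an adjusted p of 0.9999, and 1 of 21247 probes on the whole array did (0.00471%). At an unadjusted p under 0.05 the count was again 0 of 40, against 3.08% of all probes. The null mean was higher for 25 genes and lower for 15, beside 53.3% higher over all 12851 named genes. The majority turned on a single sample, with 18 higher and 21 lower without null sample 9 and 28 higher and 12 lower without null sample 11. The median difference was 0.04 on the log2 scale beside 0.01 over all genes, and the median size of a difference was 0.08 beside 0.09. With a sample left out, the median of the list ran from -0.0021 (without null sample 9) to 0.072 (without null sample 11).

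For 35 of the 40 genes the 95% interval of the difference lay inside a 1.5-fold change in either direction, a share of 87.5% beside 87.7% of all named genes. The 5 genes with wider intervals were Btrc, Tulp3, Ift80, Ift52 and Ift46. This count rests on the offset of 50, which compresses dim probes, and on the scaling. The genes with wider intervals numbered 10 with an offset of 16, among them Hhat, Ift88 and Bbs2, 12 with subtraction floored at 1, where Gli3 and Rab23 joined them, and 11 with median scaling, and the share of all named genes inside 1.5-fold was 75.9%, 63.3% and 72.5% under the same settings. Without null sample 6 or null sample 11 the number was 10 as well. The samples of the groups did not overlap for 2 genes, Ift80 and Bbs1, beside 9.22% of all named genes in either direction and 5.26% with the null samples higher, which was the direction of both. Ift80 overlapped under median scaling, cyclic loess and both of the authors' own scalings (the scanner's normalized values and the value table), and Bbs1 under the same settings other than cyclic loess. The median SD of a gene over the 6 arrays was 0.15 in the list and 0.15 over all genes.

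**Figure D1:**
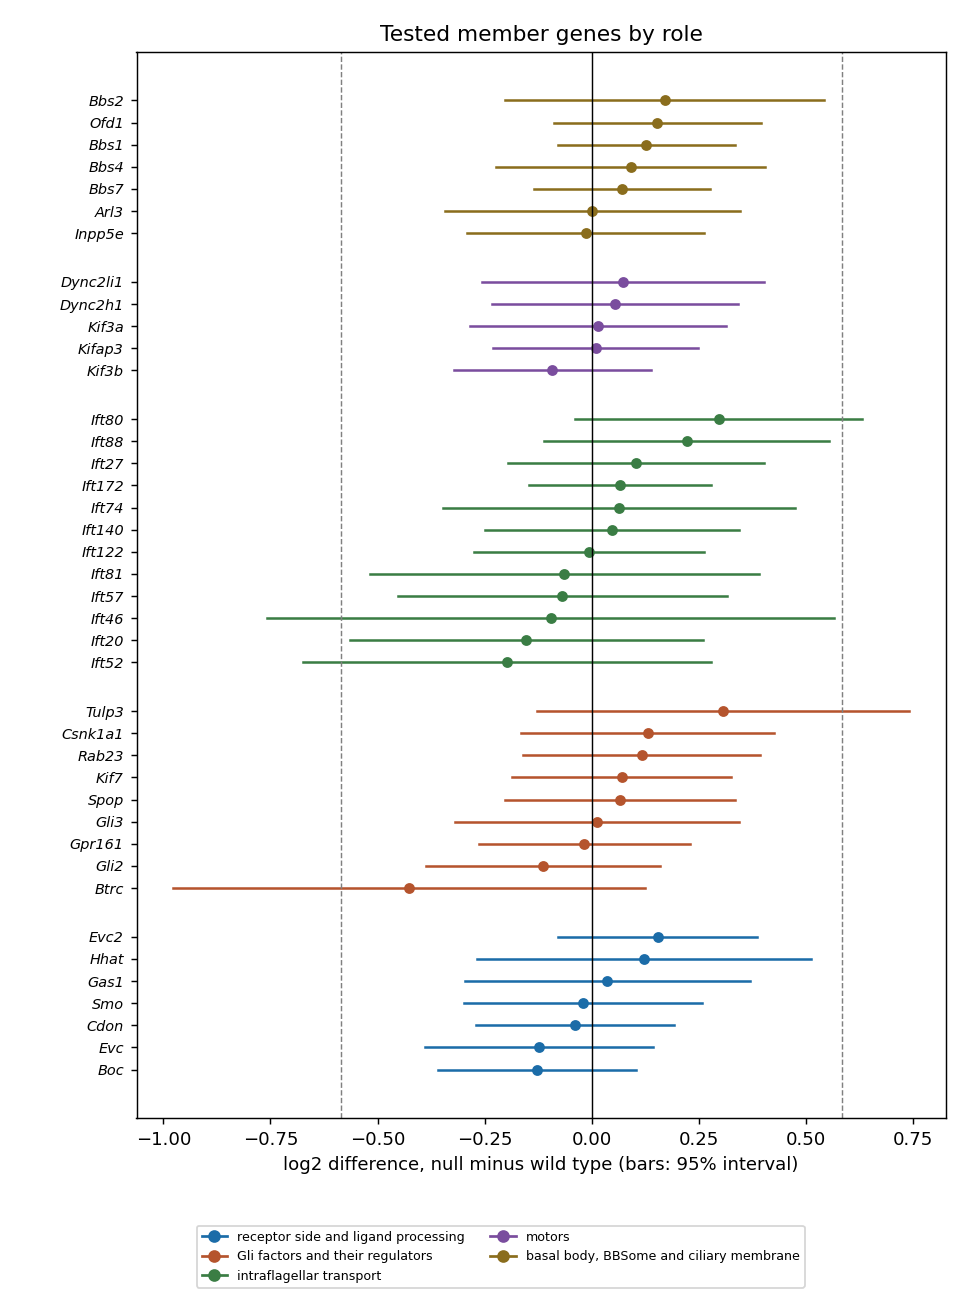
Log2 difference, null minus wild type, of each of the 40 tested genes, grouped by role, with the 95% interval of the limma fit as a bar and dashed lines at a 1.5-fold change. Every interval crosses 0, and the intervals of Btrc, Tulp3, Ift80, Ift52 and Ift46 reach past a dashed line.

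On the receptor side, 3 of 7 tested genes had a higher and 4 a lower mean in null embryos, from -0.13 for Boc to 0.15 for Evc2, with a median of -0.02. Smo encodes Smoothened, the transmembrane protein that turns ligand reception into Gli activity. Its signal was 7.92, 8.19 and 7.99 in null samples 6, 9 and 11 and 7.91, 8.02 and 8.22 in wild-type samples 7, 10 and 12. The groups overlapped throughout, and the difference was -0.02 ± 0.12 with an interval from -0.30 to 0.26. Evc2 encodes a protein of the base of the cilium that, with Evc, relays the signal downstream of Smoothened. Its signal was 8.48, 8.34 and 8.49 in the null samples and 8.36, 8.32 and 8.17 in wild type. Null samples 6 and 11 were the highest of the 6, while null 9 lay below wild-type 7, and the difference was 0.15 ± 0.10. The partner Evc went the other way, at 8.29, 7.97 and 8.01 in null and 8.28, 8.13 and 8.22 in wild type. Its highest single value was that of null sample 6, and its difference was -0.12 ± 0.12.

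The coreceptors that help Patched bind the ligand gave similarly narrow values. Boc read 7.07, 7.07 and 6.89 in null and 7.12, 7.06 and 7.22 in wild type, a difference of -0.13 ± 0.10 in which wild-type sample 10 lay under the higher null values. Cdon differed by -0.04 ± 0.10 and Gas1 by 0.04 ± 0.15. Hhat, the acyltransferase that palmitoylates hedgehog ligands, differed by 0.12 ± 0.17. Disp1, the transporter that releases the lipidated ligand, was above background in 1 null and 0 wild-type samples. A second, dimmer Evc2 probe was above background on 2 null and 0 wild-type arrays and was not tested. Its raw intensities were 36.8, 38.3 and 27.8 in the null samples and 8.15 and 6.69 in wild-type samples 10 and 12, and the spot of wild-type sample 7 was left out as contaminated. Without the filter on dim probes its difference was 0.57, with an interval from 0.28 to 0.86, an unadjusted limma p of 0.00153 and an adjusted p of 0.99996.

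Among the Gli factors and their regulators, 6 of 9 tested genes had a higher and 3 a lower mean in null embryos, with a median of 0.07 and the widest range of the roles, from -0.43 to 0.31. Gli2 encodes the main activator in the ventral neural tube. It read 7.36, 7.16 and 7.28 in null and 7.32 and 7.44 in wild-type samples 10 and 12, the irregular spot of wild-type sample 7 having been left out. The groups overlapped, at a difference of -0.11 ± 0.12. Gli3, chiefly a repressor, read 6.59, 6.62 and 6.42 in null and 6.34, 6.84 and 6.42 in wild type. Wild-type samples held both its highest and its lowest value, and the difference was 0.01 ± 0.14. Sufu, which holds Gli proteins in the cytoplasm, was above background in 1 null and 0 wild-type samples, with raw intensities of 26.6, 38.7 and 24.5 in null and 25.3, 34.0 and 15.6 in wild type. No difference could be read from it at this signal. Prkaca and Prkacb, catalytic subunits of the protein kinase A that marks Gli proteins for processing, were above background in 2 null and 1 wild-type samples each.

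Kif7 encodes the kinesin that organises the ciliary tip where Gli and Sufu gather. It read 7.85, 7.69 and 7.96 in null and 7.78, 7.65 and 7.86 in wild type, so that the groups interleaved, and the difference was 0.07 ± 0.11. Tulp3 carries Gpr161 and other receptors into the cilium, and its loss in the mouse expands ventral neural identities. It read 10.12, 10.03 and 9.79 in null and 10.07, 9.31 and 9.63 in wild type. Wild-type samples 10 and 12 were the lowest, wild-type sample 7 lay among the null samples, and the difference was 0.31 ± 0.19 with an interval from -0.13 to 0.74. Leaving out wild-type sample 10 gave 0.12, and leaving out sample 7 gave 0.51. Gpr161 itself, a receptor that keeps protein kinase A active at the cilium, differed by -0.02 ± 0.11.

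Btrc, the F-box protein that recognises phosphorylated Gli for ubiquitination, had the largest difference in size among the 40 genes. It read 7.42, 7.76 and 7.39 in null and 7.62, 7.69 and 8.55 in wild type. Wild-type sample 12 alone was high and the other 5 samples overlapped, so that the difference of -0.43 ± 0.24 became -0.12 without that sample and -0.61 without wild-type sample 7. Csnk1a1, a kinase that takes part in Gli processing, read 11.77, 11.89 and 11.55 in null and 11.44, 11.62 and 11.76 in wild type. Its null mean was higher by 0.13 ± 0.13, with wild-type samples 10 and 12 inside the null range. Rab23, a vesicle GTPase that opposes hedgehog signalling in the mouse neural tube, differed by 0.12 ± 0.12. Spop, an adaptor that targets full-length Gli for degradation, differed by 0.07 ± 0.12.

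**Figure D2:**
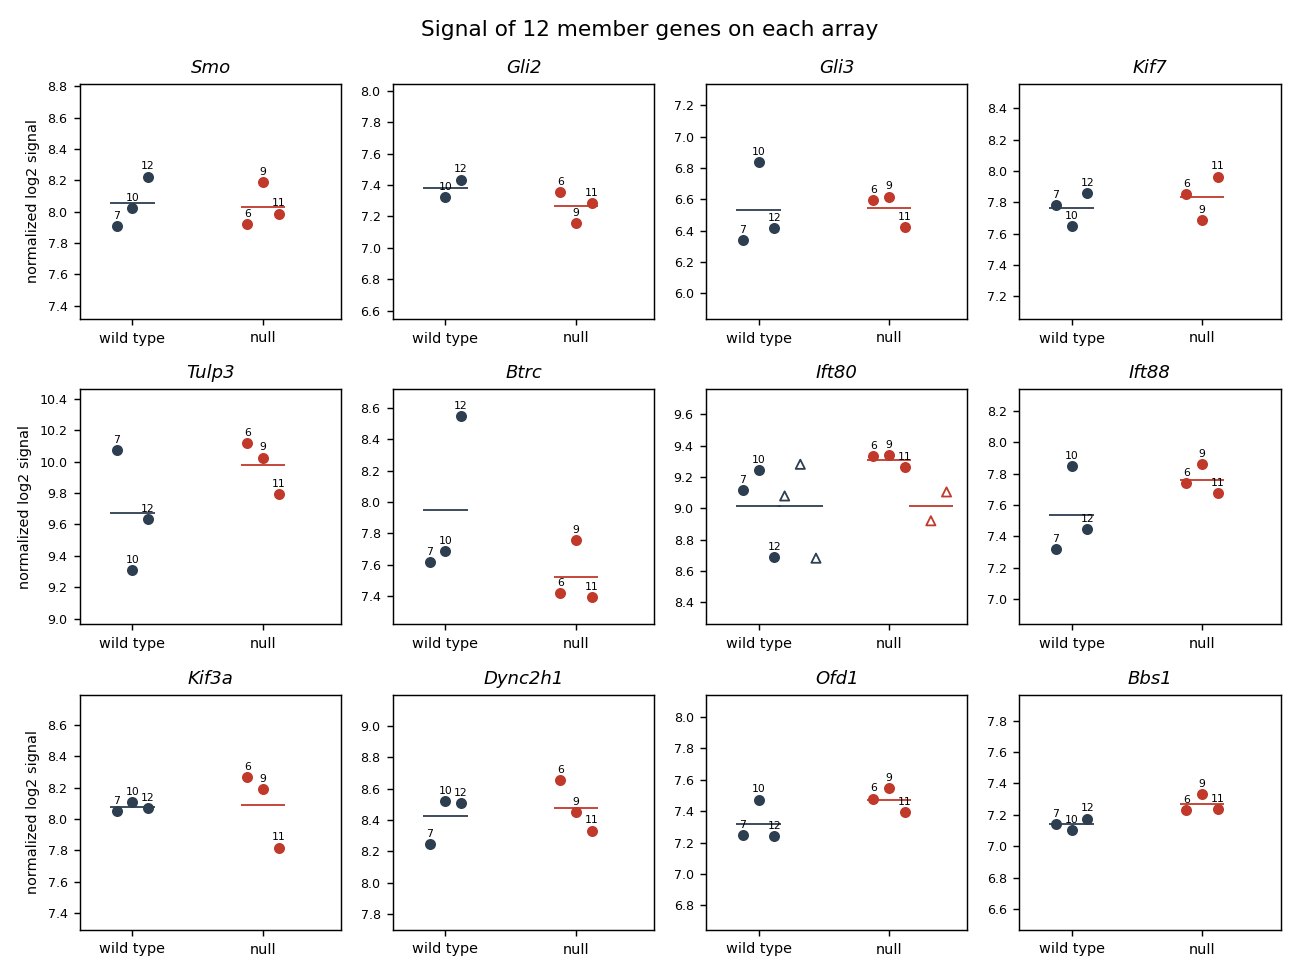
Normalized log2 signal of 12 of the genes in each sample, wild type in dark blue and null in red, with the sample number above each point and the group mean as a line; each panel has its own range. Open triangles in the Ift80 panel are a second probe, which lacks null sample 6, and of the panels shown the groups separate for the first Ift80 probe and for Bbs1.

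The intraflagellar transport genes were divided evenly, with 6 higher and 6 lower means in null embryos and a median of 0.02. Ift80, a subunit of the anterograde complex B, had the smallest p of the 40 tested genes. It read 9.33, 9.34 and 9.26 in null and 9.12, 9.24 and 8.69 in wild type. The groups did not overlap, but null sample 11 and wild-type sample 10 were nearly level and the low wild-type sample 12 carried most of the gap. The difference was 0.30 ± 0.15, with an interval from -0.04 to 0.63 and an unadjusted limma p of 0.0761. Leaving out wild-type sample 12 gave 0.13, and leaving out sample 10 gave 0.41. A second Ift80 probe read 8.92 and 9.10 in null samples 9 and 11 and 9.08, 9.28 and 8.68 in wild type, with the contaminated spot of null sample 6 left out. There the groups overlapped and the difference was -0.00 ± 0.18, so that the 2 probes of the gene disagreed.

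Ift88, the complex B subunit whose loss removes cilia in the mouse, read 7.74, 7.86 and 7.68 in null and 7.32, 7.85 and 7.45 in wild type. Wild-type samples 7 and 12 were low and wild-type sample 10 was level with the null samples, at a difference of 0.22 ± 0.14. Leaving out wild-type sample 10 gave 0.38 for Ift88, and Ift88 and Ift80 then had unadjusted p-values of 0.0115 and 0.0228 while 6.30% of all probes were under 0.05. The adjusted p was 0.788 for both. Leaving out wild-type sample 7 instead put Btrc and Tulp3 under an unadjusted 0.05, beside 3.39% of all probes. Each of the authors' own scalings put Ift80 there, beside 2.41% of all probes. Ift52, which joins the core of complex B, read 7.93 and 7.53 in null samples 9 and 11 and 7.74 and 8.11 in wild-type samples 7 and 12, the other spots having been left out. Its groups overlapped at a difference of -0.20 ± 0.20.

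The remaining transport particle genes gave differences between -0.15 and 0.10. In complex B, Ift20 differed by -0.15 ± 0.18, Ift27 by 0.10 ± 0.13, Ift172 by 0.07 ± 0.09, Ift74 by 0.06 ± 0.18, Ift81 by -0.06 ± 0.20 and Ift46 by -0.10 ± 0.29. The brighter Ift57 probe differed by -0.07 ± 0.17 and the other by -0.01 ± 0.12. In complex A, which returns cargo to the base and admits membrane proteins, Ift140 differed by 0.05 ± 0.13 and Ift122 by -0.01 ± 0.12. Both complexes held small differences of either sign, and the median of the role was 0.089 without null sample 11. A dim second Ift172 probe was not tested.

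The motors had 4 of 5 means higher in null embryos and the narrowest range, from -0.09 to 0.07, with a median of 0.02. Kif3a, a motor subunit of kinesin-2, read 8.27, 8.19 and 7.82 in null and 8.05, 8.11 and 8.07 in wild type. The null samples held the highest and the lowest value, and the difference was 0.02 ± 0.13. Its partner Kif3b read 9.57, 9.49 and 9.41 in null and 9.68, 9.49 and 9.56 in wild type, with overlapping groups at -0.09 ± 0.10. Kifap3, the adaptor that binds both, differed by 0.01 ± 0.10. Dync2h1, the heavy chain of the retrograde dynein, read 8.65, 8.45 and 8.33 in null and 8.24, 8.52 and 8.51 in wild type. Null sample 6 was the highest and wild-type sample 7 the lowest, and the difference was 0.05 ± 0.13. Its light intermediate chain Dync2li1 read 8.22, 8.49 and 8.39 in null and 8.23, 8.57 and 8.08 in wild type, a difference of 0.07 ± 0.14 in which wild-type samples spanned the null range. All 5 intervals lay inside a 1.5-fold change. A second Dync2li1 probe, above background in wild-type sample 12 alone, was not tested. It read 6.15, 6.11 and 6.18 in null and 6.36, 6.33 and 6.45 in wild type, without overlap. Without the filter on dim probes its difference was -0.23, with an unadjusted limma p of 0.047 and an adjusted p of 0.99996.

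At the basal body, the BBSome and the ciliary membrane, 6 of 7 means were higher in null embryos, from -0.01 to 0.17, with a median of 0.09. Bbs1 is a subunit of the BBSome, the coat that moves membrane proteins out of the cilium. It read 7.23, 7.33 and 7.24 in null and 7.14, 7.10 and 7.18 in wild type. All null samples lay above all wild-type samples, by a gap smaller than the spread within the null group, and the difference was 0.13 ± 0.09 with an interval from -0.08 to 0.33. Bbs2 read 6.66, 6.91 and 6.96 in null and 6.68, 6.98 and 6.37 in wild type. Wild-type sample 10 was the highest and wild-type sample 12 the lowest, at a difference of 0.17 ± 0.16. Bbs4 differed by 0.09 ± 0.14 and Bbs7 by 0.07 ± 0.09.

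Ofd1, a centriolar protein at the base of the cilium that is needed for Gli processing, read 7.48, 7.54 and 7.40 in null and 7.24, 7.47 and 7.24 in wild type. Wild-type samples 7 and 12 were low and wild-type sample 10 lay inside the null range, at a difference of 0.15 ± 0.11. Ofd1 lies on chromosome X, and Xist, a transcript chosen here after its values were seen, read 10.35 in wild-type sample 10 and 5.98 to 6.53 in the other 5 samples on its brighter probe. The part of this in the Ofd1 values was not tested. Inpp5e, the phosphatase that sets the lipids of the ciliary membrane, differed by -0.01 ± 0.12, and Arl3, the GTPase that releases lipidated cargo there, by 0.00 ± 0.15. The median of the role was 0.04 without wild-type sample 12 and 0.15 without null sample 6.

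**Figure D3:**
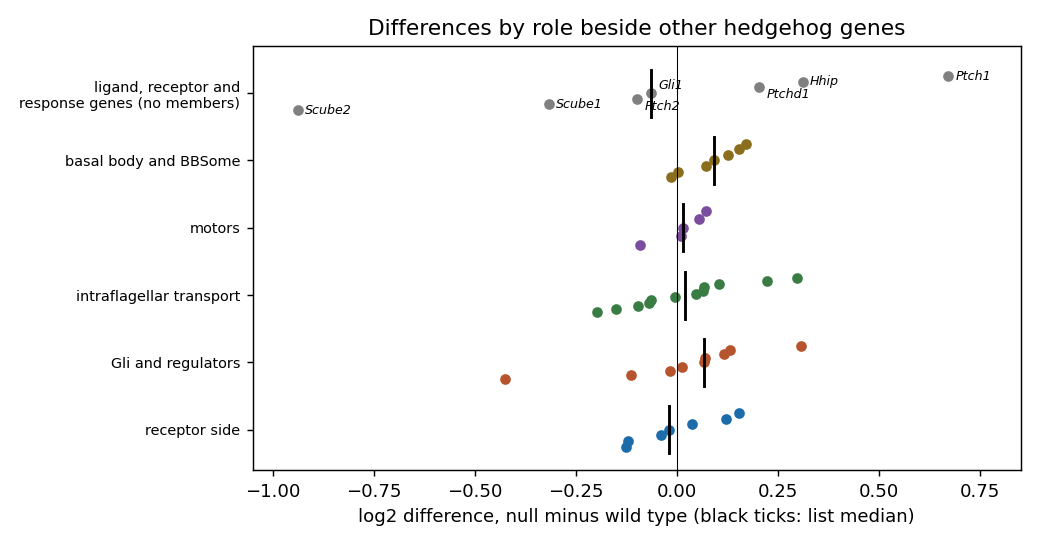
Log2 difference, null minus wild type, of each tested gene by role, with the median of each role as a black tick and, in the top row, 7 hedgehog ligand, receptor and response genes that are not in the list. The 5 role medians lie between -0.02 and 0.09, while Ptch1 at 0.67 and Scube2 at -0.94 lie outside the range of all 40 genes.

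Other genes of the pathway were taken from lists drawn up by function, and none of these passed the adjusted threshold either. Those lists, too, were drawn up with earlier results of these data known. Of 7 tested ligand, receptor and response genes, 3 had a higher and 4 a lower mean in null embryos. An unadjusted limma p under 0.05 was found for 3 of the 7, beside 3.08% of all probes. Ptch1, a receptor and a transcriptional target of the pathway, read 12.26, 12.58 and 12.37 in null and 11.91, 11.53 and 11.75 in wild type on its brighter probe. These groups were separate, at 0.67 ± 0.13, whereas a second Ptch1 probe differed by -0.02 ± 0.09. Scube2, which helps to release the ligand, read 6.60, 7.00 and 7.77 in null and 7.90, 8.41 and 7.87 in wild type. Null sample 11 came close to the wild-type samples, and the difference was -0.94 ± 0.28 with an unadjusted p of 0.00981. Hhip, which sequesters ligand, differed by 0.31 ± 0.12, and Gli1, a target gene, by -0.06 ± 0.13. Shh was near background on every array.

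Among 15 other tested kinases, ubiquitin ligases and cofactors of Gli, 11 had a higher and 4 a lower mean in null embryos, with a median of 0.09. An unadjusted limma p under 0.05 was found for 2 of the 15, beside 3.08% of all probes. Fbxw11, the paralog of Btrc, differed by 0.29 ± 0.11, at an unadjusted limma p of 0.0273. Csnk2a1, a subunit of casein kinase 2, differed by 0.32 ± 0.13, at an unadjusted limma p of 0.0385. Its fit lacked null sample 6, whose spot was left out. The raw intensity of that spot, 103, was the lowest of the 6 samples. Further genes of the transport particle and its motors were 6 higher and 9 lower of 15 tested, and further genes of the BBSome and ciliary membrane 7 and 7 of 14. Transition zone and basal body genes were 13 higher and 10 lower of 23. Ciliogenesis factors and markers of motile cilia were 3 higher and 4 lower of 7. No gene of these last 4 lists had an unadjusted p under 0.05, and the 4 medians lay between -0.07 and 0.02.

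The level of the list was also followed from sample to sample. Each gene was set relative to its own mean over the arrays. The median of the 40 tested genes was 0.04, 0.10 and -0.03 in null samples 6, 9 and 11. It was -0.06, -0.01 and 0.05 in wild-type samples 7, 10 and 12. Over all named genes tested, the median ran from -0.02 in wild-type sample 7 to 0.02 in null sample 6. Among the 38 genes measured on all arrays, wild-type sample 7 had the lowest value of 10 (26.3%, beside 20.1% of all genes). Null sample 9 had the highest of 11 (28.9%, beside 15.6%). Marker lists of the tissues in the cut varied more. All 6 neural tube, 6 somite and 6 tail bud markers were bright enough to be tested. The median of 6 tail bud markers was 0.75 in wild-type sample 7 and -0.97 in wild-type sample 10, and that of 5 primitive erythroid markers was -0.74 and 0.91 in the same samples. Somite markers stood at -0.55 in wild-type sample 10 and 0.46 in null sample 9. Between genotypes, 5 of 6 neural tube markers and 5 of 5 surface ectoderm markers had a lower mean in null embryos. A higher mean was found for 5 of 6 somite and 5 of 6 tail bud markers. It was also found for 3 of 4 endothelium, 3 of 5 gut endoderm and 2 of 5 primitive erythroid markers. None of these markers passed the adjusted threshold, and 53.3% of all named genes had a higher mean in null embryos. Whether the marker values reflect the amounts of the tissues was not tested, nor was their part in the values above.

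**Figure D4:**
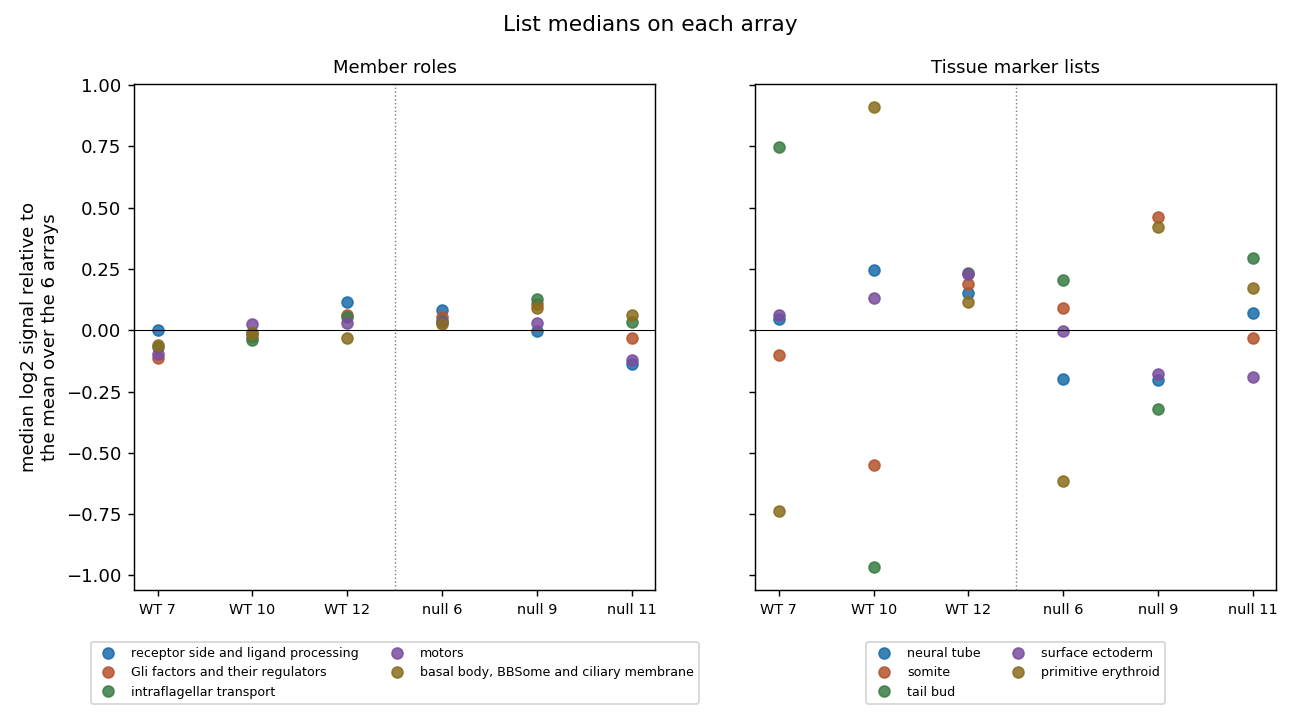
Median log2 signal relative to each gene's mean over the 6 samples, by sample, for the 5 roles (left) and for 5 lists of tissue markers (right), on the same scale. The role medians stay between -0.14 and 0.13, and the marker medians span -0.97 to 0.91.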

How the data were processed

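Amplified, biotin-labelled cRNA was hybridised to CodeLink arrays per the labels' protocols. The deposited raw intensity is already background-subtracted, since 38 to 67 transcript spots per array lay below 0, and per the file headers the deposited normalized intensity is that value divided by the array median. The value table of the authors equals this normalized intensity multiplied by 1.01 to 1.02 on each array, on a linear scale with column medians of 1.00 to 1.01, and was used as an alternative. Raw intensities were floored at 0, raised by an offset of 50, taken to log2 and quantile normalized. Irregular, contaminated and defective spots, 391 to 543 on an array, were set missing. A probe was tested where no spot of at least 1 group was near background and each group had at least 2 usable values, which left 21247 probes. limma 3.58.1 in R 4.3.3 fitted null against wild type (lmFit and eBayes, two-sided), the p-values were adjusted over these probes by Benjamini-Hochberg, and the fit was tested on simulated data. The offset compresses differences of dim probes. A gene is represented by its brightest tested probe.

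Probes were named from the platform annotation, with 21487 symbols updated by gene number, 128 kept as listed, 499 found through their accession, 681 spots left with several symbols and 12172 with none. The file headers place all quantification in 1 session. The labels name no batch of labelling, hybridisation or litter, so none could be tested. The members and the other lists were chosen with earlier results of these data known. Values in every sample are given for 9 genes chosen by role, for the 3 smallest p-values of each role and for genes without overlap. Outside the list, Fkbp8, Ptch1, Gli1 and at most 3 genes of each other list were to be named by smallest p; Shh, like Xist, was added after its values were seen.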

Additional observations from a re-analysis of the deposited data

How the results depend on the processing

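No alternative put any of the 40 genes past the adjusted threshold: over 594 gene values under floor, offset, scaling, starting value, filter, flag, variance model and left-out sample, the count was 0. Under settings that kept every sample, only 2 gene values moved by over the spread between replicates. They were Bbs1 with subtraction floored at 1 (0.19) and Ift172 with the scanner software's normalized intensity (0.13). Leaving out 1 of 3 samples cannot shift a difference by that much, apart from renormalization, so this measure is not informative there. With a sample left out, Ift46 ran from -0.31 (without null sample 9) to 0.17 (without wild-type sample 12). Btrc ran from -0.61 (without wild-type sample 7) to -0.12 (without wild-type sample 12). The count over all probes was 0 with subtraction floored at 1, with median scaling and with cyclic loess, 2 with every spot kept, and 0 to 1 when a sample was left out. The Fkbp8 difference was -2.89 with subtraction floored at 1 and -2.37 with an offset of 16, both set by how the offset compresses dim signals. The basal body median was 0.12 with median scaling, 0.121 with the scanner software's normalized intensity and 0.12 with the authors' value table, and 0.042 to 0.15 with a sample left out. The transport particle median ranged from -0.013 to 0.089 with a sample left out. The motors' median ranged from -0.038 to 0.060 and that of all 40 genes from -0.0021 to 0.072, so the direction of these medians rests on single samples. The unadjusted count was 1 of 40 (Ift80) with the scanner's normalized intensity and with the value table. Of all probes, 2.41% were under 0.05 in each. The count was 2 of 39 without wild-type sample 7 (Btrc and Tulp3), beside 3.39% of all probes. Without wild-type sample 10 it was 2 of 39 (Ift80 and Ift88), beside 6.30%. Genes without overlap numbered 1 with median scaling (Tulp3), with cyclic loess (Bbs1), and with the scanner's normalized intensity and the value table (Evc2). With a sample left out they numbered 2 to 8, where the smaller group separates more readily. The share of all genes under these settings was not counted, so these counts are no result about the list. Genes whose interval reached past 1.5-fold, 5 in the reported fit, numbered 12 with subtraction floored at 1, 10 with an offset of 16, 11 with median scaling and 4 to 7 under the other settings that kept every sample. The cause was not tested for any of these changes except the offset's. No paired analysis was made, because the groups share no sample numbers and no label pairs the samples. Whether neighbouring sample numbers share a litter or a day is not labelled and was not tested. Signal over background limited the comparison for Sufu, Disp1, Prkaca and Prkacb, which were too dim to be tested.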
